A study of Mus musculus with 405 samples.

Results

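Immediate early genes (IEGs) that neuronal activity induces were followed through a chemical screen in mouse cortical cultures. The genes were chosen by symbol: Fos, Fosb, Fosl2, Junb, Egr1, Egr2, Egr3, Npas4, Nr4a1 and Arc. All 10 were found among the 13304 genes of the screen table and among the 23893 genes of a count table for 1 fungicide. Cultures came from cortices of C57BL/6J dams crossed to CAST/EiJ males, taken on embryonic day 15 by the labels. Cells grew in 12-well plates, received an antimitotic at 3 days in vitro, and were exposed at 7 days in vitro for 24 h. The screen held 49 libraries of cultures given vehicle (dimethylsulphoxide) and libraries of 297 chemicals, mostly pesticides, at a concentration that did not kill the cells. For 257 chemicals this was 10 μM, and the lowest concentration was 0.01 μM. A single library stood for 282 chemicals, 2 libraries for 13 chemicals, 4 for diethyltoluamide, and 32 libraries for topotecan, a topoisomerase 1 inhibitor used as positive control. The count table held 4 libraries with pyraclostrobin at 0.1 μM, a fungicide that blocks mitochondrial complex III, and 4 with vehicle. Neuron markers dominated the marker lists in vehicle libraries of the count table, with 9041 to 9618 CPM (counts scaled to the size of the library) for 11 genes, and astrocyte and microglia markers were also detected. The cultures thus hold glia as well as neurons, and in these bulk samples fewer cells of a type and less RNA per cell cannot be told apart.

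When a neuron fires, calcium enters through NMDA receptors and voltage-gated channels and starts kinase cascades that phosphorylate CREB and the partners of SRF, transcription factors that already sit at IEG promoters. IEGs are then transcribed without new protein synthesis, and most of their messages are short-lived. The products of Fos, Fosb, Fosl2 and Junb pair to form the AP-1 transcription factor, the Egr genes encode zinc finger factors, Npas4 encodes a bHLH-PAS factor that responds mainly to calcium, Nr4a1 an orphan nuclear receptor, and Arc a synaptic protein that moves AMPA receptors off the surface. Growth factors and stress also induce several of them in glia and other cells, whereas Npas4 is known for its restriction to neurons.

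Promoter sequences were examined because the same activators are thought to drive these genes together. Entries from RefSeq on build GRCm38.p6 were matched by symbol for 7 of 10 genes. Egr1, Egr3 and Arc had no entry. The expression files use another build, mm9, in which Fosl2 lies on chromosome 5, Egr2 on 10, Egr3 on 14, Arc on 15 and Egr1 on 18, and no coordinates were compared between the builds. The 250 bases before the transcription start are given 5′ to 3′ for 5 genes, with each half-site of the cAMP response element (CRE), TGACG on either strand, in capitals.
Fos, chr12:85473640-85473889, plus strand: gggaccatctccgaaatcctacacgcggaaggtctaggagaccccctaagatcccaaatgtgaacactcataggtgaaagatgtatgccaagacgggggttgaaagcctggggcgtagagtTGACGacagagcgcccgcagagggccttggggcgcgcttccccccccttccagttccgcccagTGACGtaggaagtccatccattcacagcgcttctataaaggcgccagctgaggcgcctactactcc
Fosb, chr7:19310046-19310295, minus strand: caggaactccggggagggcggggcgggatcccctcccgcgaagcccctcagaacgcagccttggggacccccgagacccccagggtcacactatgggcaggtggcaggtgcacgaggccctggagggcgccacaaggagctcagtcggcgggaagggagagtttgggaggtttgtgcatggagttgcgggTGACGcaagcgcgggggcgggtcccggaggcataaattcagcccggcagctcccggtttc
Junb, chr8:84978749-84978998, minus strand: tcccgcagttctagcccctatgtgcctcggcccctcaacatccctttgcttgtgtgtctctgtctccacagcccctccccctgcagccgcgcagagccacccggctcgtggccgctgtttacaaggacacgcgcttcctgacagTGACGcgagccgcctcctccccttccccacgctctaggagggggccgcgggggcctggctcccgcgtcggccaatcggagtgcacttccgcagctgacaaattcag
Npas4, chr19:4989972-4990221, minus strand: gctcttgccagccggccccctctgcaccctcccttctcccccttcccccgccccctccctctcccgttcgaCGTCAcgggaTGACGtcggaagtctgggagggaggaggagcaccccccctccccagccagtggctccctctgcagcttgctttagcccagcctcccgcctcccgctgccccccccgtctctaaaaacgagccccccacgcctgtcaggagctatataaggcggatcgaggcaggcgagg
Nr4a1, chr15:101266596-101266845, plus strand: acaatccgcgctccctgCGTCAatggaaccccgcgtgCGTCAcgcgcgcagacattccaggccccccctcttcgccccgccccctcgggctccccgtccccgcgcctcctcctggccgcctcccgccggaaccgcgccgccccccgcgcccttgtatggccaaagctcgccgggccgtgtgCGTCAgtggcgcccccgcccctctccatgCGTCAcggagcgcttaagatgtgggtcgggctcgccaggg
Of the 6 genes with 1 promoter entry, 5 held such a half-site, and 17.8% of all 32851 promoter windows of that length held one. Fos had half-sites at positions -129 to -125 and -66 to -62, counted backwards from -1 at the base before the start, and a TATA box between the second of these and the start. Nr4a1 had 4 half-sites and Npas4 had 2, at -179 to -175 and -169 to -165, on opposite strands. Fosl2, the fourth AP-1 gene, held none. No window of the 7 genes held the full element TGACGTCA, which 1.55% of all windows hold, or an AP-1 site (TGACTCA or TGAGTCA), which 4.46% hold. Egr2 had 5 entries for different starts, of which 4 held a CArG box, the sequence that SRF binds, against 1.47% of all windows, and 3 held 2 CRE half-sites, with windows that overlap each other. These matches describe letters in these windows and are not measurements of binding.

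Levels in the vehicle libraries of the count table ranked Fosl2 first by a wide margin. Per kilobase of exon, Fosl2 stood at 33.4 ± 2.66 CPM (SD, n = 4) and Junb stood at 13.3 ± 4.16. Fos (7.81 ± 2.69), Egr1 (7.74 ± 1.5), Egr3 (6.49 ± 1.31) and Nr4a1 (5.35 ± 1.02) followed, and the ranges of neighbours in this order overlapped. Npas4 had 3.98 ± 2.17, and its range of 1.88 to 6.85 overlapped that of Nr4a1. Arc had 1.83 ± 0.224 CPM per kilobase, and Fosb (0.531 ± 0.173) and Egr2 (0.453 ± 0.0531), whose ranges overlapped, were lowest. With totals of 2409623 to 7833440 counts per library, Egr2 had 3 to 11 counts, and its values carry large counting error.

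Pyraclostrobin was compared with vehicle to ask what a complex III inhibitor does to the cultures. Fos, Fosb, Junb, Egr1, Nr4a1 and Arc were called higher and Egr3 lower, so that 2 members of the Egr family had calls in opposite directions. The calls of Junb and Egr1 were each lost in 6 of 8 fits that left out 1 library. Of the 10 genes, 9 passed the filter on low counts. The 4 libraries of a group may come from fewer than 4 independent cultures. In edgeR's quasi-likelihood test 6 of these were higher and 1 lower at an adjusted p under 0.05, whereas 34.9% of all 12324 genes tested were called, 18.5% as higher and 16.4% as lower. The median log2 difference was 0.80 over the 9 genes and -0.00213 over all genes tested.

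**Figure D1:**
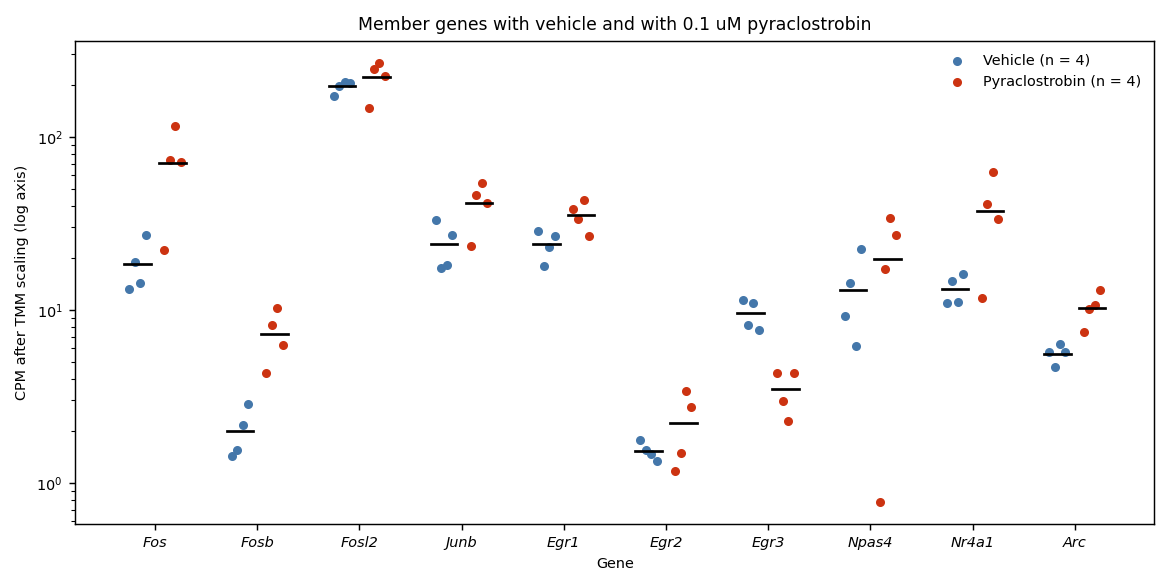
Each point is 1 library and each bar the mean of 4, in CPM after scaling of libraries by the trimmed mean of M values (TMM), on a log axis, for vehicle (blue) and 0.1 μM pyraclostrobin (red). Fosb and Arc lie higher with pyraclostrobin in every library and Egr3 lower, while the Npas4 values with pyraclostrobin run from 0.780 to 34.1 CPM.

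Among the AP-1 genes, Fos had 13.1, 19, 14.2 and 27.1 CPM in the vehicle libraries and 22.2, 73.7, 114.6 and 71.1 CPM with pyraclostrobin. Only the first pyraclostrobin library reached into the vehicle range, and the log2 fold change was 1.92 ± 0.41 (SE; edgeR adjusted p = 0.00393). Fosb, which encodes a close relative of Fos, had 1.42, 1.55, 2.15 and 2.84 CPM with vehicle and 4.29, 8.23, 10.2 and 6.29 CPM with pyraclostrobin. The Fosb groups did not overlap, and the log2 fold change was 1.76 ± 0.35 (edgeR adjusted p = 0.00253). Among all genes tested, 18.1% had groups without overlap with pyraclostrobin higher, and 17% with it lower. Junb, the Jun-type partner, had 33, 17.5, 18.1 and 27.2 CPM with vehicle and 23.4, 46.4, 54.1 and 41.7 CPM with pyraclostrobin. The first pyraclostrobin library lay within the vehicle range, and its log2 fold change of 0.80 ± 0.27 (edgeR adjusted p = 0.0424) was lost without pyraclostrobin or vehicle library 2, 3 or 4, with adjusted p-values of 0.0624 to 0.149, and with the column number as a block (adjusted p = 0.0617). Fosl2 had a mean of 195.6 ± 15.6 CPM with vehicle and 221.3 ± 52.4 CPM with pyraclostrobin (SD, n = 4 each), a difference within the spread of the libraries (log2 fold change 0.18 ± 0.17, edgeR adjusted p = 0.449).

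The Egr genes differed in direction, although the call of Egr1 did not hold when single libraries were left out. Egr3, a zinc finger factor that MAP kinase signalling is known to induce, had 11.4, 8.15, 11 and 7.63 CPM with vehicle and 4.29, 2.99, 2.27 and 4.32 CPM with pyraclostrobin. All 4 pyraclostrobin libraries lay below all vehicle libraries, and the log2 fold change was -1.45 ± 0.29 (edgeR adjusted p = 0.00256). The underlying counts with pyraclostrobin were 6 to 11 per library. Egr1 had 28.4, 17.8, 23.1 and 26.6 CPM with vehicle and 38.2, 33.3, 43.1 and 26.7 CPM with pyraclostrobin. The fourth pyraclostrobin library lay within the vehicle range, and the log2 fold change of 0.56 ± 0.19 (edgeR adjusted p = 0.046) was lost without pyraclostrobin library 1, 2 or 3 or vehicle library 2, 3 or 4, with adjusted p-values of 0.0692 to 0.172. Egr2 did not pass the filter and had 1.35 to 1.78 CPM with vehicle and 1.17 to 3.41 CPM with pyraclostrobin.

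Of the remaining genes, Nr4a1 had 11, 14.7, 11.1 and 16 CPM with vehicle and 11.7, 41.1, 62.8 and 33.4 CPM with pyraclostrobin. The first pyraclostrobin library was again low, and the log2 fold change was 1.49 ± 0.39 (edgeR adjusted p = 0.0119); without the third pyraclostrobin library it was 1.07, with an adjusted p of 0.0525. Arc had 5.68, 4.65, 6.31 and 5.68 CPM with vehicle and 7.41, 10.1, 10.6 and 13 CPM with pyraclostrobin. The Arc groups did not overlap (log2 fold change 0.86 ± 0.24, edgeR adjusted p = 0.016), and without the fourth pyraclostrobin library the log2 fold change was 0.68 with an adjusted p of 0.061. Npas4 had 9.24, 14.4, 6.18 and 22.4 CPM with vehicle and 0.780, 17.2, 34.1 and 27.1 CPM with pyraclostrobin. Its first pyraclostrobin library, with 2 counts, was the lowest of all 8 and the third the highest, and the log2 fold change of 0.59 ± 0.64 was within that spread (edgeR adjusted p = 0.514).

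Other genes of the pathway were read from lists drawn up with the members. Over all genes tested, 18.5% were called higher and 16.4% lower with pyraclostrobin, and counts in the lists stand against these shares. Of 32 further IEGs tested, 16 were higher and 2 lower with pyraclostrobin, with a median log2 difference of 0.54. The largest were Klf4 (log2 difference 2.72), Zfp36 (2.37), Atf3 (2.33), Maff (2.05) and Gadd45g (2.03), a Krüppel-like factor, an mRNA decay factor, a stress-responsive partner of AP-1, a small Maf protein and a growth arrest gene. Late activity-response genes, the second wave that encodes secreted factors and receptors, had a median log2 difference of 0.05: 1 of 17 tested was higher, Ptgs2 (1.30), and 4 were lower, Tac1 (-1.71), Cartpt (-1.5), Nptx1 (-0.79) and Syt4 (-0.29). Among 31 genes that carry the activity signal to the nucleus, 13 were lower and 1 higher, with Camk2a (-1.40), Grin1 (-1.13), Gria1 (-1.07), Camk4 (-1.02) and Camk2b (-0.79) lowest. Markers of cell types moved as well. The summed level of 11 neuron markers was 9041 to 9618 CPM with vehicle and 4186 to 5343 CPM with pyraclostrobin, and 10 of the 11 were called lower. All 6 microglia markers tested of 8 listed were called higher, with sums of 21.3 to 29.4 CPM with vehicle and 80.1 to 142.6 CPM with pyraclostrobin. Sums of 7 astrocyte markers were 627.7 to 1096 CPM with vehicle and 919.1 to 3269 CPM with pyraclostrobin (3 called higher of 6 tested), and sums of 6 markers of progenitors and dividing cells were 140.9 to 209.1 and 566.5 to 1086 CPM (5 called higher). Vascular and fibroblast markers were called higher for 3 of 3 and 3 of 4 tested, and oligodendrocyte lineage markers for 2 of 5, with Mog lower, while Mag and Cldn5, defining markers of oligodendrocytes and endothelium, were at 0 counts in all 8 libraries. The part of these shifts in the values of the IEGs was not tested.

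In the screen the values are log2 deviations from each gene's median over all libraries, so that they give differences and no levels. Some libraries share exactly the same value of a gene. Fos was 0.535674 with bendiocarb, benfluralin, clothiandin and prometon alike. Pyraflufen-ethyl and vehicle library 32 had the same Fos (0.562834) and the same Npas4 (0.527243). The origin of shared values was not examined, and they may not be separate measurements. They enter the medians, ranks and class means below. The spread of most of the 10 genes was large. Over the 297 chemicals the SD was 0.78 for Fosb, 0.72 for Egr2, 0.60 for Fos and Egr3, 0.58 for Npas4, 0.53 for Arc, 0.48 for Nr4a1 and 0.45 for Egr1, against a median SD of 0.26 over all genes. Junb (0.28) and Fosl2 (0.22) varied about as much as the median gene. In vehicle libraries the SD was 0.69 for Fos, 0.78 for Fosb and 0.63 for Npas4. Without 1 library that stood apart, picked as the highest for Fos, it was 0.59, 0.73 and 0.54, below the SD over chemicals. For Egr1 it was 0.29, or 0.28 without that library. For 13 chemicals with 2 libraries, the SD between repeats was 0.75 for Fos, 0.70 for Npas4 and 0.81 for Egr2, each above the SD over chemicals. It lay below the SD over chemicals for Nr4a1 (0.36), Arc (0.41), Egr1 (0.41) and Egr3 (0.55). Values of single chemicals are therefore descriptions that carry this error.

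**Figure D2:**
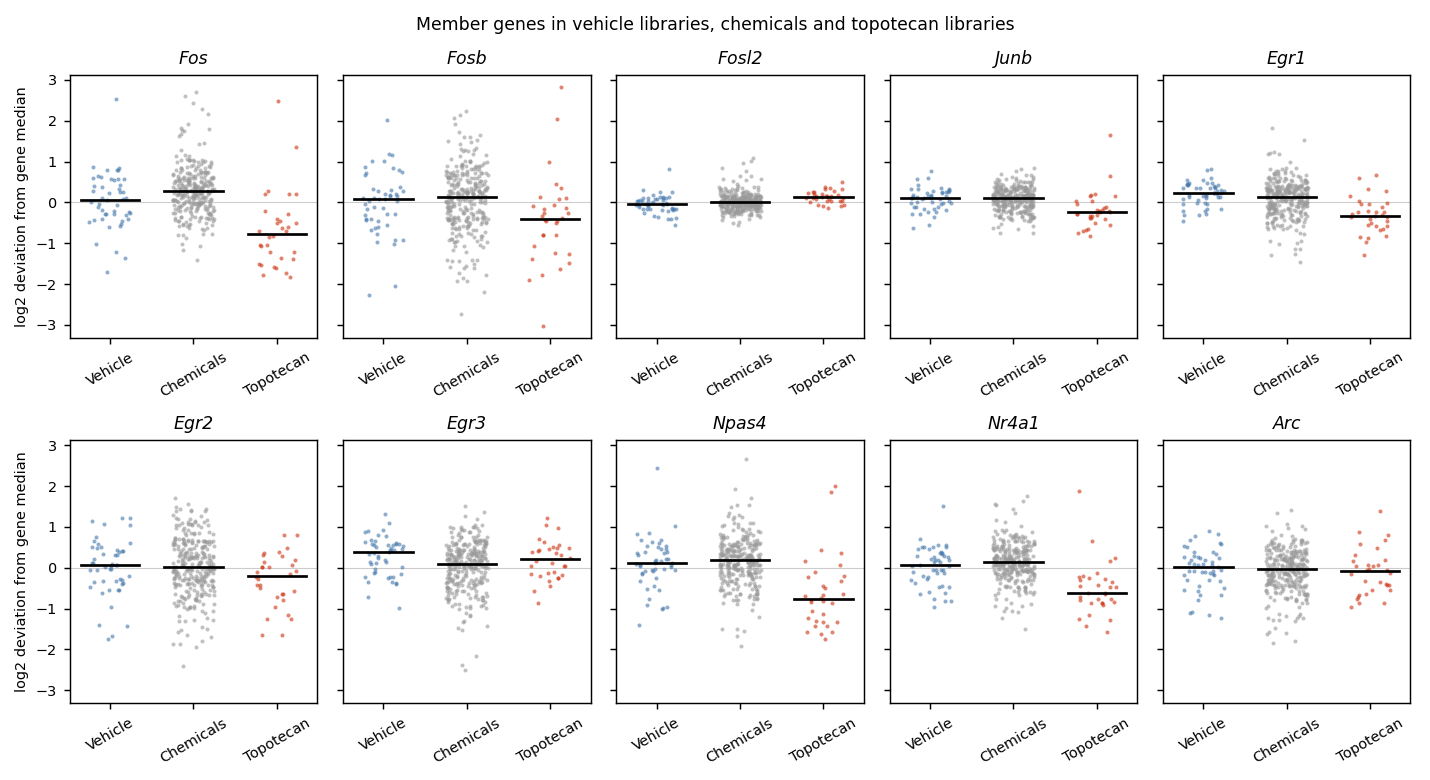
Each point is 1 vehicle library (blue, 49), 1 chemical as the median of its libraries (grey, 297) or 1 topotecan library (red, 32), as the log2 deviation from the gene's median over all libraries, and bars are group medians. The topotecan bars lie furthest below the vehicle bars for Fos, Npas4, Nr4a1 and Egr1, and 1 vehicle library and 1 topotecan library stand high for Fos, Fosb, Npas4 and Nr4a1.

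That library, vehicle library 39 by a number given here in accession order, was picked because its Fos was the highest. It also differed in other genes. Its log2 deviation was 2.52 for Fos, 2.44 for Npas4, 2.01 for Fosb and 1.51 for Nr4a1, while Egr3 was at -0.98, the lowest vehicle value of that gene. Over all genes it also had the largest median absolute deviation from the other vehicle libraries, at 0.246. Without it the highest vehicle values were 0.88 for Fos, 1.03 for Npas4 and 0.69 for Nr4a1, and counts and calls that change without it are given both ways. Since a member picked it, values without it are no evidence about the members.

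Topotecan lowered 5 of the 10 genes and raised 1 relative to vehicle in limma's test, at an adjusted p under 0.05 over all genes, where 45.8% of 13304 genes were called, 24.9% as higher and 20.9% as lower. The median log2 difference was -0.36 over the 10 genes and 0.03 over all genes. Fos ran from -1.71 to 2.52 in vehicle libraries with a median of 0.05, and from -1.82 to 2.49 with topotecan with a median of -0.76. The top of each range was 1 library, and without vehicle library 39 the highest vehicle value was 0.88. The log2 difference of the means was -0.73 ± 0.18 (SE, limma adjusted p = 0.000406). Npas4 had medians of 0.12 with vehicle (range -1.40 to 2.44) and -0.77 with topotecan (range -1.76 to 2.00), a log2 difference of -0.71 ± 0.17 (limma adjusted p = 0.000239). Nr4a1 had medians of 0.06 (range -0.96 to 1.51) and -0.61 (range -1.58 to 1.89), a log2 difference of -0.55 ± 0.12 (limma adjusted p = 0.000145).

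Egr1 gave the smallest p-value of the 10 genes with topotecan. Its median was 0.23 with vehicle (range -0.45 to 0.83) and -0.32 with topotecan (range -1.30 to 0.67), a log2 difference of -0.52 ± 0.08 (limma adjusted p = 4.45e-08). Junb was lower by a smaller amount, at -0.27 ± 0.08 (limma adjusted p = 0.00465). Fosl2 was the exception: it rose by 0.18 ± 0.05 on the log2 scale (limma adjusted p = 0.000593). Differences for Fosb (-0.42 ± 0.21, limma adjusted p = 0.0904), Egr2 (-0.31 ± 0.15, adjusted p = 0.0876), Egr3 (-0.09 ± 0.11, adjusted p = 0.528) and Arc (-0.06 ± 0.12, adjusted p = 0.721) did not pass. A single topotecan library, number 22 in accession order, was likewise picked as the highest of its group for Fos. It had 2.49 for Fos, 2.84 for Fosb and 1.89 for Nr4a1. Without it the Fosb difference was -0.52 with an adjusted p of 0.0201, and the other 9 genes kept their calls; without vehicle library 39 all 10 kept theirs.

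Of the further IEGs with topotecan, 6 of 32 were higher and 8 lower, while 24.9% of all genes were called higher and 20.9% lower. The median log2 difference was 0.03 over this list and 0.03 over all genes, so that the list as a whole did not stand out. The largest differences called were those of Egr4 (log2 difference -0.94), Nr4a3 (-0.57), Gadd45b (0.44), Homer1 (-0.42) and Per1 (-0.40). Late activity-response genes were lower in 13 of 19 and higher in 2, with Cartpt (-1.86), Crh (-1.28), Bdnf (-0.51), Rgs2 (-0.49) and Vgf (-0.49) most changed. The genes that carry the signal to the nucleus were lower in 23 of 31 and higher in 2, with Grin2b (-1.32), Grin2a (-1.05), Cacna1c (-0.90), Gria1 (-0.73) and Ppp3ca (-0.69) lowest. These include NMDA receptor subunits, a calcium channel and a calcineurin subunit, and a link from them to the IEG values was not tested. The paper states that topoisomerase 1 inhibitors lower the expression of long genes, and gene length was not examined here. Neuron markers were lower in 8 of 11 and higher in 2, and the mean over the list ran from -0.18 to 0.38 in vehicle libraries and from -0.55 to -0.04 with topotecan. Astrocyte markers were lower in 5 of 6, and the part of either list in the IEG values was not tested.

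Across the 297 chemicals the genes formed a group around Fos and a looser group around Egr1, with a negative correlation between Egr3 and Fos. Spearman's rho over chemicals was 0.58 between Fos and Npas4, 0.56 between Fos and Nr4a1, 0.54 between Fos and Fosl2 and 0.42 between Fos and Fosb. Egr1 went with Arc (0.46), Junb (0.44) and Egr3 (0.40). Egr3 had a rho of -0.25 with Fos, and Egr2 had 0.04 with Fos and no value above 0.22 with any of the others. In the 48 vehicle libraries without library 39, Fos had 0.60 with Nr4a1, 0.57 with Fosl2, 0.54 with Fosb, 0.49 with Arc and 0.48 with Npas4, and -0.34 with Egr3. In the 32 topotecan libraries Fos and Egr3 had -0.55. Points within each set share the normalization and batch correction, and genes of low count share counting error of their own, so that these values are descriptions.

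**Figure D3:**
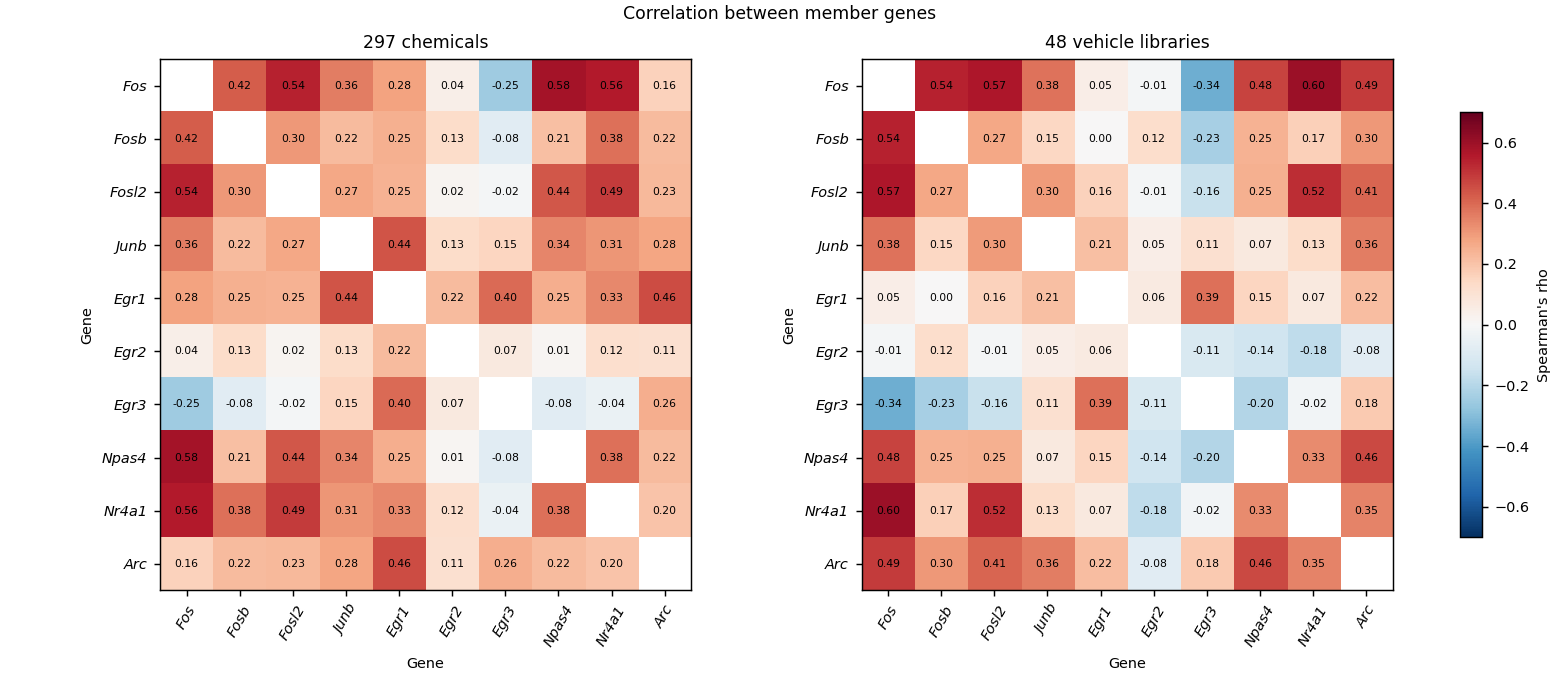
Spearman's rho between each pair of the 10 genes over 297 chemicals (left) and over 48 vehicle libraries (right, without the library that stood apart), with the value in each cell. Fos, Fosl2, Npas4 and Nr4a1 are positively correlated in both sets, and Egr3 is negatively correlated with Fos in both.

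The genes most like Fos over the chemicals were Bdnf (rho = 0.70), Vgf (0.69) and Scg2 (0.67), all of which encode secreted proteins of the late activity response. In vehicle libraries their rho with Fos was 0.77, 0.57 and 0.56. Rgs2 (0.62), Rgs4 (0.62) and Elmo1 (0.59) were nearest to Npas4, the first of them regulators of G protein signalling, and Vgf (0.49), Hunk (0.48) and Rgs2 (0.48) to Nr4a1. Gng4 (0.59), Arhgap20 (0.58) and Scg2 (0.57) were nearest to Fosl2, and Ppp1r15a (0.39), Rgs2 (0.37) and Maff (0.36) to Fosb. Egr3 had other neighbours: Hivep2 (0.66), the complexin gene Cplx2 (0.62) and the Wnt ligand Wnt7b (0.60). Egr1 was most like Egr4 (0.51), Hivep2 (0.48) and Pdzd2 (0.44), and Arc like 6530402F18Rik (0.33), Kcnf1 (0.32) and Hivep2 (0.31). Junb was nearest to Rgs4 (0.36), Fjx1 (0.33) and Kcnj4 (0.32). Egr2 had no gene above 0.24 (Nr2c2ap, then Zfp280c at 0.21 and Ino80 at 0.21). The mean over the 10 genes was most like Rgs4 (0.52), Enah (0.49) and Atp2a2 (0.49). The mean of the neuron markers over chemicals had a rho of 0.40 with Egr3 and 0.23 with Egr1, and between -0.08 and 0.18 with the other 8 genes.

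Relative to the vehicle range, 47 pairs of gene and chemical lay above the highest vehicle library and 76 below the lowest, of 2970. This was 1.58% above and 2.56% below, and over all genes 2.07% and 2.69% of pairs did so. Egr1 accounted for 32 of the 76 low pairs and Egr3 for 12. Egr2 had 12 chemicals above and 5 below, Arc 8 above and 11 below, and Fos 2 above and none below. Without vehicle library 39, 161 pairs lay above and 97 below, which was 5.42% and 3.27% against 2.35% and 2.96% over all genes. That library was picked by its Fos, so leaving it out had to lower the upper limit for Fos and genes high with it. The larger share above the range without it is therefore not a result about the members. Fenpropathrin was outside the full range for 5 genes, niclosamide for 4, and dicofol, hexaconazole and pendimethalin for 3 each.

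Ranked by the median over the 10 genes, the 10 highest chemicals were chlorothalonil (1.03), methylene bis(thiocyanate) (1.01), trichlorfon (0.94), dicofol (0.91), fenpropathrin (0.87), hexaconazole (0.86), profenofos (0.77), niclosamide (0.73), tebupirimfos (0.65) and bifenazate (0.65). They include thiol-reactive biocides, organophosphates, a pyrethroid, an azole and the uncoupler niclosamide. In 49 vehicle libraries this median ran from -0.68 to 0.81, and 6 chemicals lay above that range and 3 below it. With fewer vehicle libraries than chemicals, some chemicals without any effect would also fall outside this range, so these counts alone show no response. With vehicle library 39 left out, 24 chemicals lay above, when the highest vehicle value was 0.40. That library was picked by its Fos, so the count of 24 is raised by construction. The 10 lowest were prometryn (-0.92), methoxyfenozide (-0.71), camptothecin (-0.70), etoxazole (-0.60), S-bioallethrin (-0.56), MGK (-0.53), hexythiazox (-0.48), oryzalin (-0.48), disulfoton (-0.47) and triflumizole (-0.47). Of these 20 chemicals only chlorothalonil had 2 libraries, and its repeats were 0.21 and 1.84 for Fos and -0.50 and 2.58 for Egr2, but 0.92 and 1.58 for Egr1 and 1.05 and 1.78 for Arc.

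Chemicals at the top of Fos reached the other genes to different degrees. Niclosamide at 1 μM had the highest Fos (2.69) and Fosl2 (1.08), with Fosb at 2.15 and Npas4 at 1.54, but Egr1 at -0.02 and Egr3 at -0.56. Fenpropathrin at 10 μM had Fos at 2.60, the highest Npas4 (2.66) and Nr4a1 at 1.65, with Egr1 at -0.01 and Egr3 at -1.17. Methylene bis(thiocyanate) at 1 μM had the highest Fosb (2.25) and Fos at 2.43, with Egr3 at -0.00117. The lowest Fos values were those of hexythiazox (-1.42), prometryn (-1.17) and flutolanil (-1.06), all within the vehicle range. Hexaconazole (2.06) was the third chemical for Fosb, and anilazine (-2.72), hexazinone (-2.20) and boscalid (-1.92) were its lowest. For Fosl2, fenpropathrin (1.02) and dicofol (0.97) followed niclosamide, and esfenvalerate (-0.55), cyazofamid (-0.49) and hexythiazox (-0.47) were lowest.

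Other genes had other leading chemicals. Junb was highest with hexaconazole (0.85), formetanate hydrochloride (0.81) and trichlorfon (0.77) and lowest with malaoxon (-0.75), the phthalate metabolite MEHP (-0.74) and diquat dibromide (-0.64). Egr1 was highest with naled (1.82), trichlorfon (1.52) and chlorothalonil (1.25) and lowest with flumetralin (-1.47), etoxazole (-1.28) and S-bioallethrin (-1.27). Egr2 was highest with emamectin benzoate (1.70), malaoxon (1.57) and propanil (1.5) and lowest with imazethapyr (-2.40), molinate (-1.94) and 2,4-D (-1.86).

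Egr3 was highest with chlorpyrifos-methyl (1.51), imazapyr (1.38) and isoxaflutole (1.26) and lowest with diethylhexyl pthalate (-2.50), flumetralin (-2.38) and flusilazole (-2.16). Npas4 was highest with fenpropathrin, dicofol (1.94) and cyfluthrin (1.70) and lowest with naled (-1.91), pyraclostrobin (-1.68) and hexythiazox (-1.54). Nr4a1 was highest with dicofol (1.77), fenpropathrin and niclosamide (1.57) and lowest with monocrotophos (-1.5), thiodicarb (-1.23) and oxamyl (-1.08). Arc was highest with chlorothalonil (1.41), emamectin benzoate (1.34) and dichlorvos (1.08) and lowest with perfluorooctanoic acid (-1.83), S-bioallethrin (-1.80) and oryzalin (-1.62). The screen library of pyraclostrobin is the same library as the first of the count table, where Npas4 had 0.780 CPM. In the 3 pyraclostrobin libraries sequenced besides it, Npas4 had 17.2 to 34.1 CPM, none below the vehicle mean of 13 CPM.

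Chemicals were grouped into 21 classes by their known target or structure, with 175 chemicals in a class, and each class was compared with the vehicle libraries to ask which modes of action move these genes. Of 210 pairs of gene and class, 7 passed limma's test at an adjusted p under 0.05, or 3.33%, and 2.34% of the pairs over all genes did. One of the 7 was higher and 6 were lower, and 4 of them were Egr3. Counts of chemicals above or below a vehicle median in a class stand against those of all chemicals. Of all 297, 81 lay above the vehicle median of Egr3 and 196 above that of Fos. The median over chemicals was 0.14 for Egr1 and 0.18 for Npas4, with vehicle medians of 0.23 and 0.12.

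**Figure D4:**
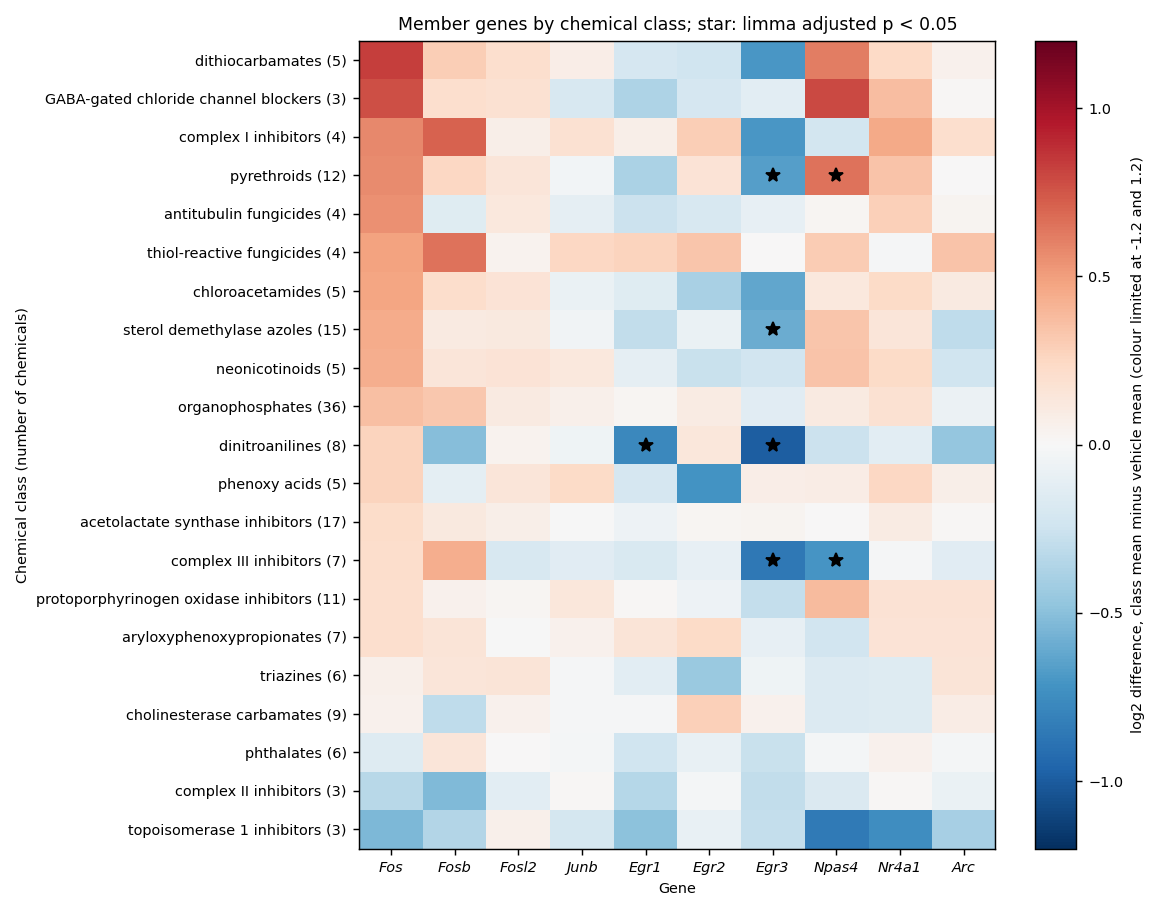
Colour gives the log2 difference between the mean of a class and the mean of 49 vehicle libraries for each gene, classes are ordered by Fos with the number of chemicals in brackets, and stars mark an adjusted p under 0.05 in limma's test. Stars fall on Egr3 in 4 classes, on Npas4 in 2 and on Egr1 in 1, and Fos differs most with dithiocarbamates (0.83) without passing.

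Egr3 was lower with dinitroanilines, herbicides that bind plant tubulin. Its value was between -2.38 and 0.02 over the 8 chemicals, each below the vehicle median of 0.39. Only 81 of all 297 chemicals lay above that median. The log2 difference was -0.99 ± 0.21 (SE, limma adjusted p = 0.0015), and 2.4% of all genes were called with this class. Flumetralin was lowest, and without it the difference was -0.76 with an adjusted p of 0.0825. Egr1 was also lower with dinitroanilines, between -1.47 and 0.16 and below the vehicle median in 8 of 8 chemicals, with a log2 difference of -0.77 ± 0.16 (limma adjusted p = 0.000781), and it kept its call without any 1 of them. Fos was at 0.27 ± 0.23 (limma adjusted p = 0.646) in the same class. Neuron markers were called lower for 2 of 11 with this class.

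With complex III inhibitors, Egr3 was between -1.48 and 0.42 over 7 chemicals and below the vehicle median in 6. The log2 difference was -0.86 ± 0.22 (limma adjusted p = 0.00144), where 20.8% of all genes were called. Npas4 had a log2 difference of -0.71 ± 0.22 (limma adjusted p = 0.0116), and without pyraclostrobin it was -0.53 with an adjusted p of 0.134. Its 2 fenamidone repeats were at -1.85 and 0.45. All 11 neuron markers were called lower with this class, and their part in the 2 calls was not tested.

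With pyrethroids, which hold voltage-gated sodium channels open, Npas4 rose and Egr3 fell, and 4.21% of all genes were called. Npas4 was above the vehicle median in 10 of 12 chemicals, from -0.64 with esfenvalerate to 2.66 with fenpropathrin, and the log2 difference was 0.65 ± 0.18 (limma adjusted p = 0.0148). Without fenpropathrin it was 0.47 with an adjusted p of 0.157, and without cyfluthrin 0.56 with an adjusted p of 0.0728. Egr3 was below the vehicle median in 11 of 12, from -1.53 with bifenthrin to 0.91 with d-cis,trans-allethrin, with a log2 difference of -0.66 ± 0.18 (limma adjusted p = 0.0122). Without bifenthrin its difference was -0.55 (adjusted p = 0.0689) and without fenpropathrin -0.59 (adjusted p = 0.0676). Fos was above the vehicle median in 11 of 12 pyrethroids, with a log2 difference of 0.57 ± 0.19 that did not pass (limma adjusted p = 0.0661). Without vehicle library 39 it was 0.62 and passed (limma adjusted p = 0.0305). Leaving out the vehicle library with the highest Fos raises this difference by construction.

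The second wave of the activity response was also read with the pyrethroids, where 4.21% of all genes were called in either direction. Of 19 late activity-response genes, 8 were higher and none lower, with a median log2 difference of 0.26 against -0.01 over all genes. Fits without single pyrethroids were not made for these lists. Bdnf and Vgf were picked out above as most like Fos over the same chemicals, so they are not separate from Fos. Cartpt (1.10), Vgf (0.83), Pcsk1 (0.68), Bdnf (0.48) and Rgs2 (0.38) were highest, a neuropeptide, a granule protein, a prohormone convertase, a neurotrophin and a G protein regulator. Of 32 further IEGs 5 were higher, Atf3 (0.75), Per1 (0.44), Nr4a3 (0.43), Crem (0.42) and Dusp1 (0.37), and none was lower. In the list of genes that carry the signal to the nucleus, Camk4 (-0.38) and Ppp3ca (-0.29) were lower and Grin1 (0.20) higher. Neuron markers were called lower for 1 of 11.

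Egr3 was also lower with sterol demethylase azoles, fungicides that block ergosterol synthesis. Over 15 azoles Egr3 ran from -2.16 with flusilazole to 0.86 with paclobutrazol, 13 of them below the vehicle median, and the log2 difference was -0.59 ± 0.16 (limma adjusted p = 0.0222; 2.13% of all genes were called). Neuron markers were called lower for 3 of 11 with this class. Relative to all other chemicals in place of vehicle, Egr3 was not called with azoles, pyrethroids or dinitroanilines, with adjusted p-values of 0.647, 0.257 and 0.0765, and was called with complex III inhibitors (adjusted p = 0.0367). Npas4 with pyrethroids was not called either (adjusted p = 0.0573), whereas Egr1 with dinitroanilines and Npas4 with complex III inhibitors were, and Fosl2 with complex III inhibitors and Nr4a1 with topoisomerase 1 inhibitors were added. Over all 297 chemicals, 196 lay above the vehicle median of Fos and 81 above that of Egr3. Fos was above and Egr3 below in 150, or 50.5%, where these 2 counts alone would give 48%. By class this ran from 1 of 6 phthalates to 4 of 4 complex I inhibitors, with 10 of 12 pyrethroids, 4 of 5 chloroacetamides, 4 of 5 dithiocarbamates, 8 of 11 protoporphyrinogen oxidase inhibitors, 5 of 8 dinitroanilines, 9 of 15 azoles and 4 of 7 complex III inhibitors. The 2 counts of each class would give 84% for pyrethroids (83.3% seen), 100% for complex I inhibitors (100%) and 80% for chloroacetamides (80%). They would give 62.5% for dinitroanilines (62.5%), 57.8% for azoles (60%) and 61.2% for complex III inhibitors (57.1%). The share seen lay further above for dithiocarbamates (80% against 64%), protoporphyrinogen oxidase inhibitors (72.7% against 59.5%) and phthalates (16.7% against 11.1%).

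**Figure D5:**
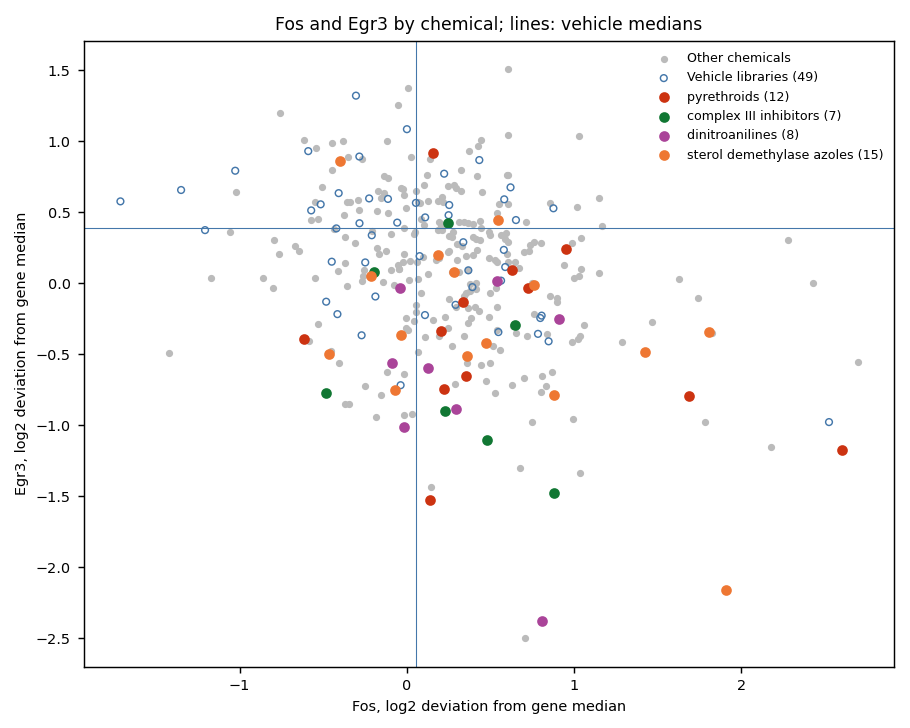
Each point is 1 chemical (grey or coloured by class) or 1 vehicle library (open circles), with Fos on the x axis and Egr3 on the y axis as log2 deviations from the gene's median, and lines at the vehicle medians. Of 12 pyrethroids 10 lie in the lower right, with high Fos and low Egr3, where the vehicle library that stood apart also lies. This is 83.3% of them, and their separate counts for Fos and Egr3 would give 84%.

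Of the classes without a call, organophosphates were the largest, with 36 chemicals. Their log2 difference was 0.36 ± 0.13 for Fos (limma adjusted p = 0.128), with 25 of 36 above the vehicle median, and -0.14 ± 0.12 for Egr3 (adjusted p = 0.64). Of all 297 chemicals, 196 lay above the vehicle median of Fos, so the count of 25 is close to the share of all chemicals. Dithiocarbamates had Fos from -0.12 to 2.18 over 5 chemicals (log2 difference 0.83 ± 0.28, limma adjusted p = 0.204) and Npas4 at 0.61 ± 0.26 (adjusted p = 0.358). The 3 blockers of GABA-gated chloride channels, which remove inhibition, had Fos from 0.14 to 1.82 and Npas4 from 0.40 to 1.33, above the vehicle medians in 3 of 3 for both (log2 differences 0.77 ± 0.36 and 0.79 ± 0.33, limma adjusted p = 0.663 and 0.602). Most chemicals lay above the vehicle median of Fos, and the Npas4 median over all chemicals (0.18) was above that of vehicle (0.12). Complex I inhibitors had Fosb at 0.71 ± 0.40 (limma adjusted p = 0.342) and Egr3 at -0.69 ± 0.29 (adjusted p = 0.129), and 10 of 11 neuron markers were called lower with them. Topoisomerase 1 inhibitors, as 3 medians, had Npas4 at -0.85 ± 0.33 (limma adjusted p = 0.0976) and Nr4a1 at -0.74 ± 0.28 (adjusted p = 0.0801), below the vehicle medians in 3 of 3, and 6 of 11 neuron markers were called lower. All genes were called at 7.86% with complex I inhibitors, 8.99% with topoisomerase 1 inhibitors and 0.195% with dithiocarbamates, at 0.0977% with acetolactate synthase inhibitors, 0.00752% with protoporphyrinogen oxidase inhibitors and 0.015% each with thiol-reactive fungicides and triazines.

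Pyrethroids differ by an alpha-cyano group, and 4 with it (cyfluthrin, cypermethrin, esfenvalerate and fenpropathrin) were compared at 10 μM with 6 without it (bifenthrin, permethrin, prallethrin, resmethrin, S-bioallethrin and tetramethrin). No gene of the 10, and 0% of all genes, passed limma's test, with 599 genes at an unadjusted p under 0.05. Fosb differed most: it was between 0.29 and 1.52 with the group (mean 0.93) and between -1.40 and 0.70 without it (mean -0.26). The ranges overlapped, and the difference of 1.19 ± 0.42 had a 95% interval of 0.21 to 2.16 and a two-sided exact permutation p of 0.0429, which became 0.429 after adjustment over the 10 comparisons. Fos was between -0.62 and 2.60 with the group and between 0.14 and 0.95 without it, a difference of 0.69 with an interval of -1.37 to 2.74 (exact permutation p = 0.276, adjusted 0.585). Npas4 was between -0.64 and 2.66 with the group and between -0.11 and 1.24 without it (difference 0.46, interval -2.86 to 3.78, exact permutation p = 0.49, adjusted 0.613). The intervals use limma's SE, which draws on a variance trend over all genes and not only on the spread of these pyrethroids. For Npas4 this SE was 1.44, with SDs of 1.44 over the 4 with the group and 0.447 over the 6 without it. Adjusted exact p-values of all 10 genes were 0.429 to 0.776, and the smallest p that 210 arrangements allow is 0.00476. Fosb stayed higher with the group when any 1 pyrethroid was left out, at 0.96 to 1.40, and limma's adjusted p was 0.605 or more throughout. Tefluthrin at 0.1 μM and d-cis,trans-allethrin at 1 μM, both without the group, were tested at other concentrations and not compared. They had Fos at 0.35 and 0.16 and Npas4 at 0.74 and 0.47. The Npas4 value of d-cis,trans-allethrin was identical to that of cypermethrin.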

How the data were processed

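Polyadenylated RNA of cortical cultures was sequenced, 405 samples by the labels. Per the study's methods, reads passed a TagDust filter and were mapped by TopHat (build mm9), and ribosomal reads were dropped. The deposited count table holds raw counts over RefSeq exons, not normalized. For the screen table of 393 libraries the authors computed RPKM, kept genes detected in most samples, took logarithms, normalized by quantiles, centred genes on their median and removed culture and sequencing batch effects with a mixed model, and deposited log10 values. Batches can therefore not be examined, and the depth of the screen libraries is not given in the sources used here. Another table, for sulforaphane with fenamidone, has 6 columns under 1 name that match no single sample. These 6 columns were not used, and the comparison planned on them was not run. No authors' fold changes or p-values were used.

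Log10 values were converted to log2. Screen comparisons used limma 3.58.1 with a variance trend, and Benjamini-Hochberg adjustment over all 13304 genes at 0.05. In the class comparison, vehicle libraries entered singly and chemicals as medians, with 1 coefficient per class. Counts were tested with edgeR 4.0.16 (TMM, a minimum of 10 counts in 4 or more libraries per gene, quasi-likelihood test, threshold 0.05), in R 4.3.3, with standard errors from the fitted difference and its F value. DESeq2 1.42.0 was an alternative. CPM use TMM scaling, and sums of cell type markers use library totals. Exon lengths are from GENCODE on mm9. Ranks and correlations were computed in Python 3.11.15. The labels do not tie the 4 libraries of a group in the count table to cultures or animals, and the study states quadruplicate sequencing with 3 biological replicates. The libraries may therefore not be 4 independent cultures, and p-values measure the spread between these samples, which may in part be technical. Concentrations are those of the labels.

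The genes, lists, classes and tests were chosen with earlier results of these data known, so that no list is independent evidence. Named genes were the 10 members, up to 5 called genes of each pathway list with the largest differences, the 3 genes most correlated with each member, the 3 highest and lowest chemicals per member, and the 10 highest and lowest by the median over members. Fits were tested on simulated data. Alternatives are given in the closing section.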

Additional observations from a re-analysis of the deposited data

How the results depend on the processing

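With pyraclostrobin, 4301 genes were called by edgeR and between 3248 and 5760 on leaving out 1 library, 4525 by DESeq2, 4804 with the column number as a replicate block and 2631 at a threshold of 0.01. Fos, Fosb and Egr3 kept their calls under every alternative run. Junb lost its call with the replicate block (adjusted p = 0.0617) and, like Egr1, without the filter on low counts (adjusted p = 0.0562 for Junb and 0.102 for Egr1); the block changed no other call of the 10 genes. Libraries of the same number had deviations from their group means that correlated at 0.375, 0.101, -0.0293 and 0.16, and only for the first number was this above the value with every other number. The study calls the vehicle controls matched without saying in what, and since not every value was over 0.1 the numbers were not taken to pair the libraries. In place of 7 pairs of gene and class, 13 were called with single libraries in place of medians, the additional ones all with topoisomerase 1 inhibitors, to which the 32 topotecan libraries then belong, and 3 at a threshold of 0.01. Other settings gave 5 to 8 pairs; Npas4 with pyrethroids was not called in a separate fit (adjusted p = 0.0698), and Npas4 with complex III inhibitors was not called with chemicals at 10 μM alone (adjusted p = 0.0737). Topotecan gave 6090 calls, and 1788 with only genes with an SD above 0.1 (log10), where fewer genes are tested. In place of 123 pairs outside the vehicle range, 258 were counted without vehicle library 39 and 471 with the 5th and 95th percentile as limits, which are narrower by construction. Leaving out 1 pyrethroid left 0 genes called between alpha-cyano and other pyrethroids (lowest and highest 0). Leaving out vehicle library 39 or topotecan library 22 (numbers given here in accession order) was chosen after seeing the data, each as the highest of its group for Fos. Depth limits Egr2, at 3 to 11 counts per library, and Fosb, at 4 to 27, and single libraries of Npas4 (2 counts) and Egr3 (6 counts).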

Other observations

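Naled and trichlorfon, the 2 chemicals with the highest Egr1, are organophosphates that are known to break down to dichlorvos, and dichlorvos itself had an Egr1 value of 1.18, the sixth highest of 297. Arc was at 1.08 with dichlorvos, and Fos at 0.76, a Fos value identical to that of propiconazole. The 3 differed in Npas4, which was at -1.91 with naled, 0.80 with trichlorfon and 0.42 with dichlorvos. The organophosphate profenofos had Egr1 at 1.19, and isoxaflutole, a herbicide of another kind, had 1.21. Each of these values rests on 1 library at 10 μM and was picked after the values were seen, and over 36 organophosphates Egr1 did not pass limma's test.

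Emamectin benzoate, a macrocyclic lactone that opens glutamate-gated and GABA-gated chloride channels, combined the highest Egr2 (1.70) with the second highest Arc (1.34) of all chemicals, with Fosb at 1.47 and Fos at 0.36. It was tested in 1 library at 1 μM and was picked after the values were seen. For Egr2 the SD between repeats (0.81) was above the SD over chemicals (0.72). A link between these values and the channels was not tested.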
